A study of Drosophila melanogaster with 52 samples.

Results

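The genes described here encode the proteins that bring Polycomb group complexes to DNA in Drosophila melanogaster. They are 10 genes chosen by symbol, pho, phol, Spps, Sfmbt, Dsp1, Trl, lolal, grh, psq and cg, out of 16502 in the expression table, and all 10 passed the filter on low values that left 9748 genes for testing. Poly(A) RNA-Seq measured their transcripts in brains together with imaginal discs, the larval precursors of adult structures, at the third instar. There were 3 libraries of pho mutants (PhoKO), 4 of Spps mutants (SppsKO) and 3 of wild-type larvae (WT). Per the series' design text the pho mutants were zygotic mutants, a class in which product laid down by the mother can remain, whereas for Spps the maternal product was missing as well as the zygotic one. No allele is named for either gene, nor the stretch of it that was altered. Whether same-genotype libraries derive from different animals is not stated either, so the p-values rest on variation among libraries that could be technical.

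Polycomb response elements (PREs) are the stretches of fly DNA from which Polycomb complexes silence developmental genes. The silencing complexes PRC1 and PRC2 do not read DNA sequence themselves, and are held at PREs by proteins that do. Pho and its paralog Phol bind a shared motif through zinc fingers, and with the histone-binding protein Sfmbt they form the complex PhoRC. Spps is a zinc finger protein of the Sp/KLF family, Combgap (cg) is another zinc finger protein, and Dsp1 carries HMG boxes. GAGA factor (Trl) and Pipsqueak (psq) bind GA repeats, the small BTB domain protein Lolal partners with GAGA factor and has no zinc finger of its own, and Grainyhead (grh) is a transcription factor of epithelia and neural stem cells. Sfmbt and Lolal are thus partners rather than sequence readers.

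Levels are given as FPKM, fragment numbers scaled to transcript length and library size, which can be compared between genes. Fold changes are differences of mean log2(FPKM + 1), tested with limma across all 9748 genes, and a gene is called at a Benjamini-Hochberg adjusted p under 0.05. Markers of neurons, neural stem cells, glia and disc epithelium were all at 1 FPKM or more in at least 1 library. So were those of hemocytes, fat body, salivary gland and muscle, at uneven levels. Salivary gland markers summed to 79.4 to 1456 FPKM in PhoKO, 282 to 2998 in SppsKO and 800 to 6292 in WT. Muscle markers summed to 150 to 595 FPKM in PhoKO, 70.7 to 152 in SppsKO and 237 to 249 in WT, with 0 of 5 called by limma against WT. The part of these tissues in the recruiter values was not tested. Relative depth, read from the steps between low FPKM values, lay between 59.9% (WT 3) and 106% (SppsKO 3) of that of WT 1, with PhoKO 1 at 63.7%. SppsKO 4 stood apart from the other SppsKO libraries for 6 of the Polycomb genes listed further on, and for none of the recruiters. In bulk tissue, fewer cells of a type and less RNA per cell cannot be told apart.

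The recruiters covered a wide range of levels, and their order was nearly the same in every genotype. In WT, lolal was highest at 168 ± 9.28 FPKM (SD, n = 3), above 94.2% of tested genes, and Spps was lowest at 12.5 ± 0.335 FPKM, above 36.0% of them. Between them stood Trl at 135, Dsp1 at 126, psq at 97.0, cg at 88.1, grh at 65.3, pho at 59.6, Sfmbt at 41.7 and phol at 30.7 FPKM. The median of tested genes in WT was 19.9 FPKM, so 9 of the 10 recruiters lay above it. Neighbours in this order had separate library ranges, with the exception of grh and pho, where grh exceeded pho in 2 of 3 WT libraries. The order of the 6 genes from lolal down to grh, and of Sfmbt above phol, was the same in PhoKO, in SppsKO and in WT. In PhoKO, pho moved below phol to rank 9, with Spps at rank 10.

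**Figure D1:**
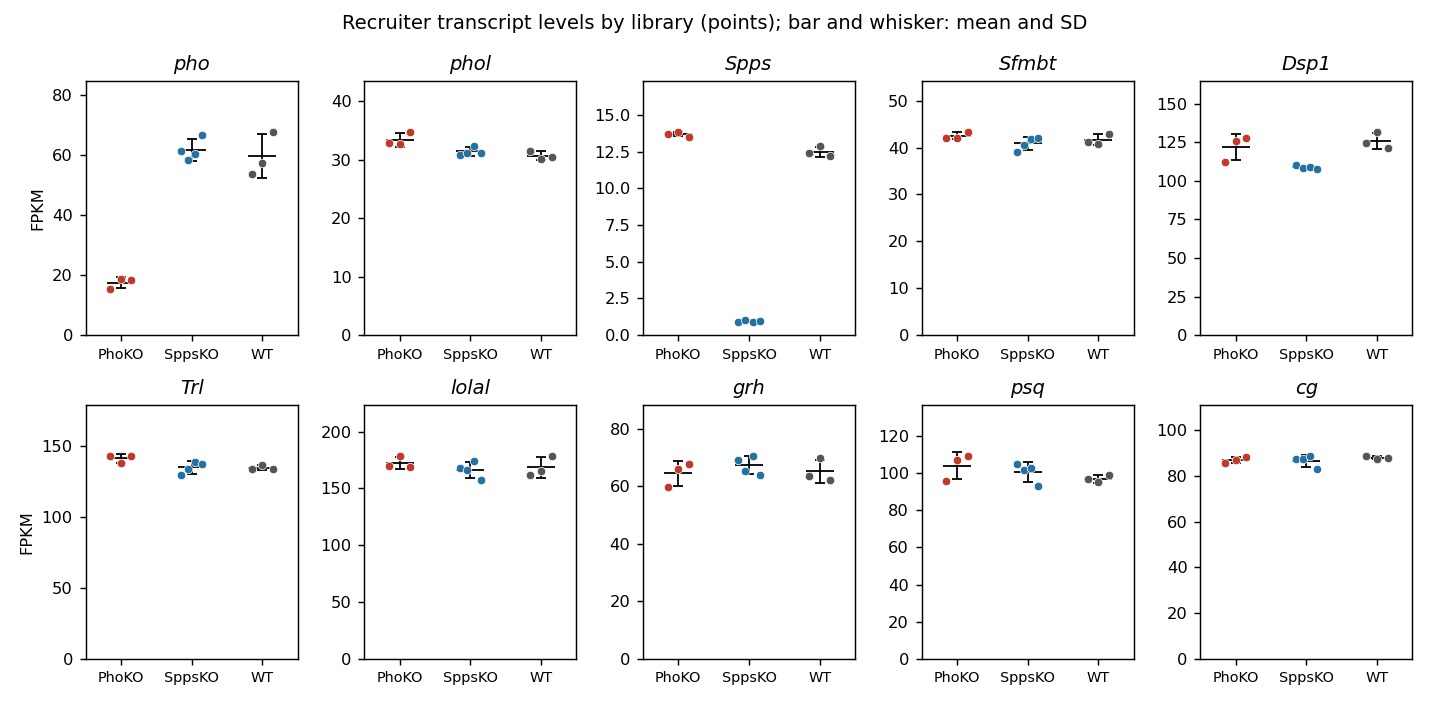
FPKM of each recruiter gene in every library (points) for PhoKO, SppsKO and WT, with group mean and SD (bar and whisker) and each axis starting at 0. Pho in PhoKO (15.3 to 18.7) and Spps in SppsKO (0.877 to 1.04) lie far below the other groups, Dsp1 in SppsKO (108 to 110) lies just below WT, and the remaining panels are nearly level.

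In the pho mutant, pho was the 1 recruiter of 10 that was called, and it was lower. In PhoKO versus WT 9.66% of tested genes were called, 4.59% higher and 5.08% lower. By limma 0 of the 9 recruiters that were not targeted were called, and 1 of them, phol, had an unadjusted p under 0.05, as did 23.7% of all tested genes. The pho transcript was at 15.3, 18.7 and 18.3 FPKM in PhoKO libraries, against 53.7, 57.2 and 67.8 in WT libraries. All PhoKO libraries lay below all WT libraries, and PhoKO held 29.3% of the WT mean. The log2 fold change was -1.71 (95% interval -1.93 to -1.50, adjusted p = 5.53e-06).

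In the Spps mutant, 2 of 10 recruiters were called, Spps itself and Dsp1, both lower. In SppsKO versus WT 8.18% of tested genes were called, 3.92% higher and 4.26% lower, and 24.2% had an unadjusted p under 0.05. Spps was at 0.877, 1.04, 0.920 and 0.988 FPKM in SppsKO libraries, against 12.4, 12.9 and 12.2 in WT libraries. SppsKO held 7.67% of the WT mean in FPKM (log2 fold change -2.78, 95% interval -2.91 to -2.66, adjusted p = 1.71e-09). With Spps near 1 FPKM in SppsKO, the 1 FPKM added before taking logs sets the size of this value, which was -3.58 with 0.1 FPKM added and -1.55 with 5 FPKM added. The labels do not say whether the pho and Spps mutations are of the same kind, so these remaining shares are given side by side without comparison.

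The HMG box gene Dsp1 was at 110.0, 108.0, 108.7 and 107.9 FPKM in SppsKO libraries, against 124, 132 and 121 in WT libraries. The groups did not overlap, which is also true of 24.0% of all tested genes in this comparison, and the mean was lower by 13.6% of WT. The log2 fold change was -0.21 (SE 0.049, 95% interval -0.32 to -0.099, adjusted p = 0.0292). This call ended without any one of SppsKO 1, SppsKO 2, SppsKO 3, SppsKO 4, WT 1 or WT 2 and in the fit with the replicate number as a block (highest adjusted p = 0.105), and the fold change stayed between -0.24 and -0.17 in every alternative run. Hemocyte markers were lower in the same libraries, 5 of 6 called, with a summed level of 35.6 to 54.6 FPKM in SppsKO and 116 to 204 in WT. Their part in the Dsp1 difference was not tested. In PhoKO, Dsp1 was at 112, 125 and 128 FPKM, overlapping WT (log2 fold change -0.047, adjusted p = 0.652).

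The remaining recruiters varied within narrow bounds, as the plot of fold changes with their intervals shows. In PhoKO versus WT the fold changes of the 9 recruiters not targeted lay between -0.047 (Dsp1) and 0.12 (Spps), and their intervals between -0.16 and 0.26. In SppsKO versus WT they lay between -0.21 (Dsp1) and 0.056 (pho), with intervals between -0.32 and 0.26. The median size of these changes was 0.047 in PhoKO and 0.032 in SppsKO, against 0.093 and 0.087 for all tested genes in the same comparisons. For the 23 other Polycomb and PRE-binding genes described further on, it was 0.063 and 0.067. Genes at like levels were not compared, so small changes are not shown to be particular to the recruiters. An absent call does not show that a level is the same.

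**Figure D2:**
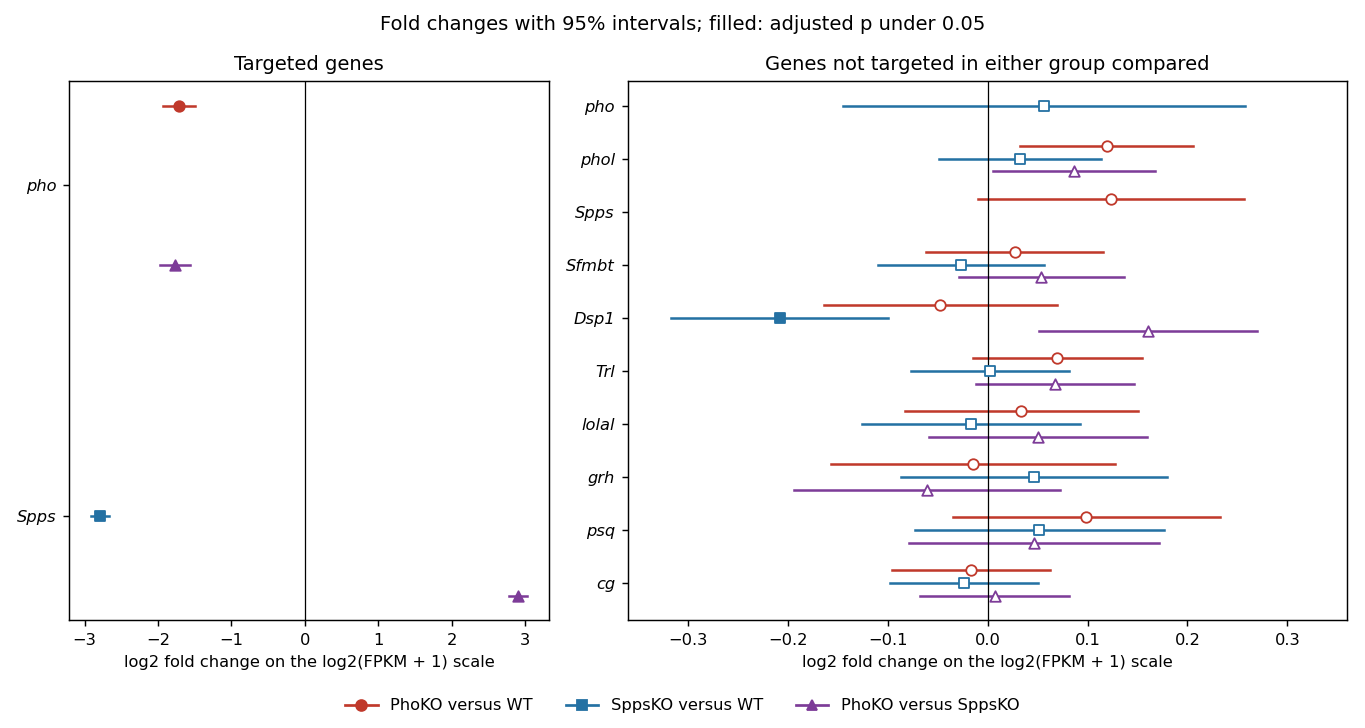
Log2 fold changes of the recruiter genes on the log2(FPKM + 1) scale with 95% intervals, for PhoKO versus WT (circles), SppsKO versus WT (squares) and PhoKO versus SppsKO (triangles), filled where the adjusted p was under 0.05. The left panel holds each targeted gene, with pho at -1.71 and Spps at -2.78 against WT. In the right panel, on a finer scale, only Dsp1 in SppsKO (-0.21) is filled.

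Among the PhoRC genes, neither the paralog phol nor Sfmbt was called in either mutant. Phol was at 32.8, 32.6 and 34.7 FPKM in PhoKO libraries, against 31.5, 30.1 and 30.4 in WT libraries. Every PhoKO library was above every WT library, which was also so for Spps and Trl, 3 of the 9 recruiters not targeted, while the libraries did not overlap in 28.2% of all tested genes in this comparison. The PhoKO mean was 8.90% above the WT mean (log2 fold change 0.12, SE 0.039, 95% interval 0.033 to 0.21), with an unadjusted p of 0.0119 and an adjusted p of 0.0871, and adjusted p stayed between 0.0717 and 0.246 in the alternatives. In SppsKO phol was at 30.9 to 32.4 FPKM, overlapping WT (log2 fold change 0.032, adjusted p = 0.635). Sfmbt, the histone-binding partner of both paralogs, was at 42.0, 42.1 and 43.4 FPKM in PhoKO, at 39.1 to 42.1 in SppsKO and at 41.3, 40.8 and 43.0 in WT. Its fold changes were 0.027 in PhoKO (95% interval -0.062 to 0.12) and -0.027 in SppsKO (95% interval -0.11 to 0.056).

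Pho exceeded phol in WT and in SppsKO, and phol exceeded pho in PhoKO. Since pho is the gene that was mutated, this ratio in PhoKO follows from the fall of pho given above and is shown as a description. The ratio of pho to phol FPKM was 0.467, 0.574 and 0.528 in PhoKO libraries, against 1.70, 1.90 and 2.23 in WT libraries. Pho made up 34.3% ± 2.32 of the summed pho and phol level in PhoKO (SD, n = 3) and 65.9% ± 3.02 in WT (SD, n = 3). The log2 ratio, with 1 FPKM added to each gene, differed by -1.83 between PhoKO and WT. In SppsKO the ratio was 1.86 to 2.15, and the log2 ratio differed from WT by 0.024 (exact two-sided permutation test, p = 0.914, n = 4 and 3).

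Summed over both paralogs, PhoKO held 50.8 ± 2.51 FPKM (SD, n = 3) against 90.2 ± 6.98 in WT (SD, n = 3), or 56.4% of the WT sum. Per unit of Sfmbt, the summed paralogs stood at 1.20 ± 0.0438 in PhoKO (SD, n = 3), at 2.28 ± 0.0749 in SppsKO (SD, n = 4) and at 2.16 ± 0.112 in WT (SD, n = 3). Transcript ratios say nothing about protein amounts, nor about maternal protein that may remain.

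**Figure D3:**
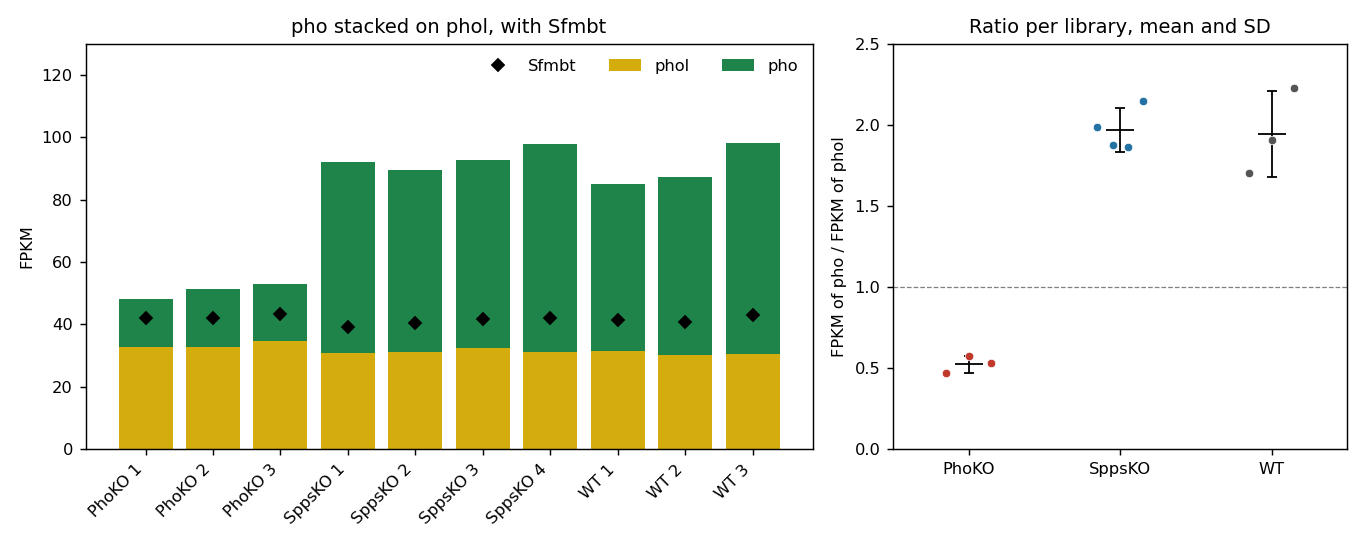
Left, FPKM of pho (green) stacked on phol (yellow) in each library, with Sfmbt as diamonds, and right, the ratio of pho to phol per library with group mean and SD. The stack falls to 50.8 FPKM in PhoKO, against 90.2 in WT, while phol and Sfmbt keep nearly the same height, and the ratio lies at 0.467 to 0.574 in PhoKO, against 1.70 to 2.23 in WT.

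Neither targeted gene was called in the other mutant. Spps was at 13.7, 13.8 and 13.5 FPKM in PhoKO libraries, against 12.4, 12.9 and 12.2 in WT libraries, with every PhoKO library above every WT library, beside the 28.2% of tested genes without overlap. The log2 fold change was 0.12 (SE 0.060, 95% interval -0.0099 to 0.26, adjusted p = 0.249). The converse, pho in the Spps mutant, was at 61.3, 58.5, 60.4 and 66.8 FPKM in SppsKO, against 53.7, 57.2 and 67.8 in WT, and the groups overlapped (log2 fold change 0.056, 95% interval -0.14 to 0.26, adjusted p = 0.747). The sign of this last value turned to -0.014 without WT 1.

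The GAGA-binding group and its partner showed no call in either mutant. Trl was at 138 to 143 FPKM in PhoKO and 134 to 137 in WT, without overlap, again beside 28.2% of tested genes (log2 fold change 0.070, SE 0.038, adjusted p = 0.306), and at 129 to 139 in SppsKO (0.0023, adjusted p = 0.977), where its sign turned under both other scalings. Psq was at 95.8 to 110 FPKM in PhoKO, 93.1 to 105 in SppsKO and 95.1 to 99.2 in WT, with log2 fold changes of 0.099 in PhoKO (SE 0.060) and 0.052 in SppsKO (SE 0.056). Lolal was at 169 to 179 FPKM in PhoKO, 157 to 175 in SppsKO and 161 to 179 in WT, with log2 fold changes of 0.034 in PhoKO (SE 0.052) and -0.017 in SppsKO (SE 0.049). The sign of lolal in SppsKO turned without WT 3 and without SppsKO 4.

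Combgap and grainyhead were not called in either mutant. The gene cg was at 85.6 to 88.4 FPKM in PhoKO, 82.9 to 88.8 in SppsKO and 87.4 to 88.9 in WT, with log2 fold changes of -0.016 in PhoKO (95% interval -0.096 to 0.063) and -0.023 in SppsKO (95% interval -0.098 to 0.051). Grh was at 59.7 to 67.9 FPKM in PhoKO, 63.9 to 70.7 in SppsKO and 62.4 to 69.9 in WT, with log2 fold changes of -0.014 in PhoKO (95% interval -0.16 to 0.13) and 0.046 in SppsKO (95% interval -0.087 to 0.18). The PhoKO sign of both genes turned under quantile normalization. Of 5 markers of neural stem cells, which express grh, 3 were called higher in PhoKO, with a summed level of 66.6 to 75.7 FPKM in PhoKO and 58.7 to 63.2 in WT. Their part in the grh values was not tested.

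Set directly against each other, PhoKO and SppsKO gave calls for 2 of 10 recruiters, the targeted genes. In PhoKO versus SppsKO 14.4% of tested genes were called, 7.24% higher and 7.12% lower, and 30.8% had an unadjusted p under 0.05. The log2 fold change was -1.77 for pho (SE 0.090, adjusted p = 3.37e-06) and 2.91 for Spps (SE 0.056, adjusted p = 3.38e-09), the value for Spps being 3.71 with 0.1 FPKM added and 1.65 with 5 FPKM added. Of the 8 other recruiters, 0 were called by limma, and 2, Dsp1 and phol, had an unadjusted p under 0.05 and libraries that did not overlap, as in 31.4% of all tested genes. Dsp1 was higher in each PhoKO library than in each SppsKO library (log2 fold change 0.16, SE 0.049, adjusted p = 0.0552), and it was called under quantile normalization, without PhoKO 1, without WT 2, without WT 3 and without WT 3 and PhoKO 1 together (lowest adjusted p = 0.00829 over all alternatives). Under quantile normalization Dsp1 and Trl joined pho and Spps, and 4 recruiters were called.

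The SD of log2(FPKM + 1) around group means had a median of 0.052 over the 10 recruiters, against 0.088 over all tested genes and 0.077 over the 7094 tested genes whose mean level lay within the recruiters' range. It was smallest for cg, at 0.031, with 2.36% of tested genes below it. It was largest for pho, at 0.13, above 72.5% of tested genes, and grh, at 0.082, also lay above the median of that range. The range holds 7094 of 9748 tested genes, so its genes are not matched in level to each recruiter. The WT values of pho ran up to 67.8 FPKM in WT 3, one of the shallow libraries.

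The genes beside each targeted locus were measured as a check of how local each loss was. By gene order in a later assembly of the fly genome (Release 6 plus ISO1 MT), the pair on either side of pho is CG32017 and Kif3C, and CG33521 and PIP4K. Of these, 3 were tested in PhoKO versus WT and by limma 0 were called, with 0 at an unadjusted p under 0.05, and Kif3C was below the filter at 0.425 to 0.543 FPKM in PhoKO and 0.567 to 0.675 in WT. PIP4K, a lipid kinase gene, was at 99.3, 115 and 110 FPKM in PhoKO, against 100, 107 and 122 in WT.

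Beside Spps, the neighbouring gene cav was lower in the Spps mutant. The gene cav encodes HOAP, a protein that caps telomeres. It was at 7.21, 6.91, 7.17 and 8.35 FPKM in SppsKO libraries, against 19.0, 17.6 and 23.9 in WT libraries, and at 19.7, 21.4 and 20.3 in PhoKO. SppsKO libraries lay below all others and held 36.7% of the WT mean. The log2 fold change was -1.33 (SE 0.096, 95% interval -1.54 to -1.11, adjusted p = 2.85e-05), and cav was called in all 18 alternatives (from -1.43 to -1.02, highest adjusted p = 0.00134).

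The annotated spans of cav and Spps overlap in that assembly, and no source used here gives the strand setting of the authors' counting. Fragments may therefore be shared between the genes, which makes both values uncertain, and how far this enters the cav difference was not tested. Of the other 3 neighbours, CG17786, CG13609 and the signal peptidase gene Spase22-23, by limma 0 were called in SppsKO and 1, Spase22-23, had an unadjusted p under 0.05. Spase22-23 was at 310, 314, 335 and 341 FPKM in SppsKO, against 298, 316 and 264 in WT (log2 fold change 0.15, SE 0.061, adjusted p = 0.163).

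**Figure D4:**
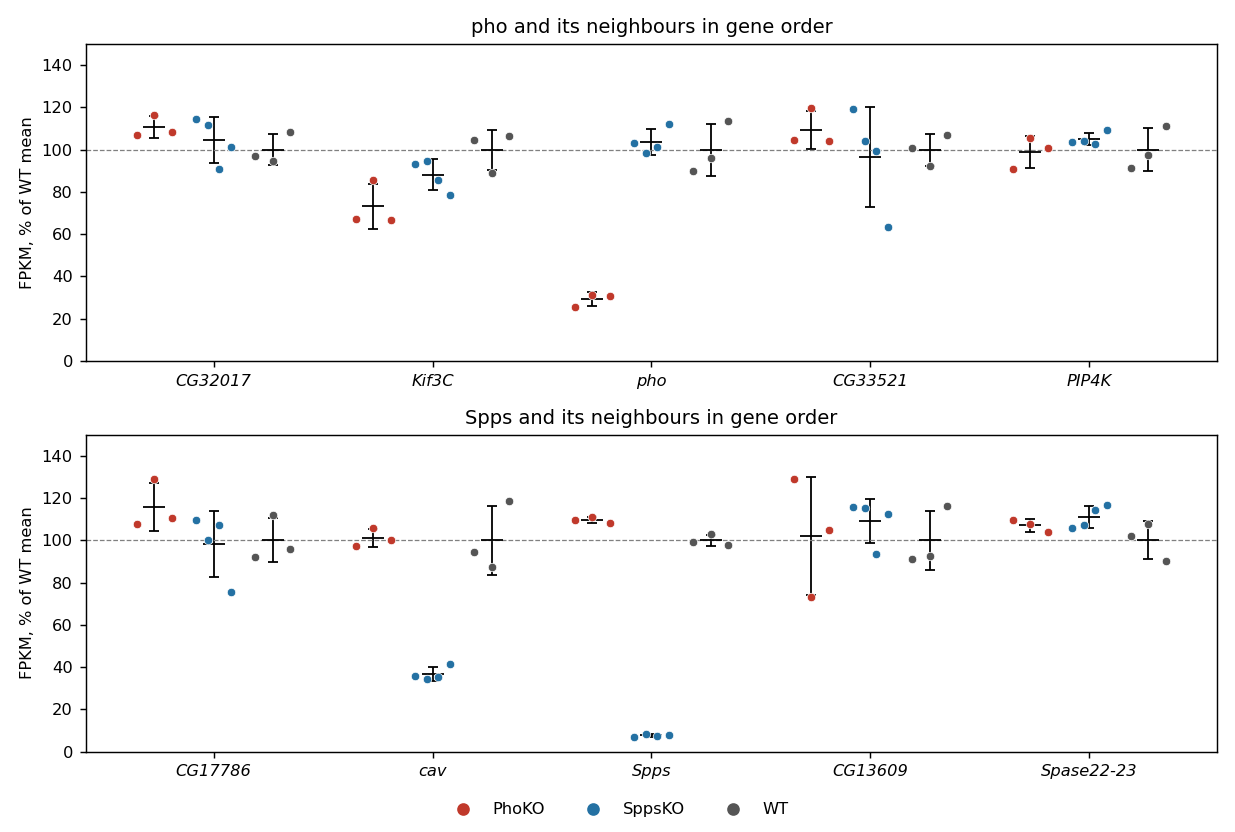
FPKM of pho (top) and Spps (bottom) and of the nearest genes on either side, in gene order, as percent of the WT mean, with a point per library and group mean and SD, for PhoKO, SppsKO and WT. Besides pho in PhoKO (29.3% of WT) and Spps in SppsKO (7.67%), cav in SppsKO stands low at 36.7% of WT.

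For each recruiter the tested gene with the most similar profile was looked up by Pearson r of log2(FPKM + 1) over the 10 libraries. These are descriptions of shared profiles among 9748 genes in libraries that also share depth and preparation. Nearest to pho was CG14715 (r = 0.987), at 61.5 to 65.7 FPKM in PhoKO, 103 to 118 in SppsKO and 108 to 114 in WT. Nearest to Spps was CG31522 (r = 0.997), at 33.1 to 35.2 FPKM in PhoKO, 13.1 to 13.8 in SppsKO and 30.8 to 34.5 in WT. Both likenesses rest on the mutant group that is low, since around group means r was 0.608 for pho and 0.259 for Spps. Neither nearest gene stood alone, as 132 tested genes had r of 0.9 or more with pho and 92 with Spps.

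Nearest to Dsp1 was ap, the selector gene of the dorsal wing compartment (r = 0.990, and 0.962 around group means). Like Dsp1, ap was low in every SppsKO library, at 36.2 to 38.3 FPKM against 44.5 to 49.9 in WT, and in PhoKO it was lowest in PhoKO 1, at 39.0 FPKM against 45.4 and 48.5 in PhoKO 2 and PhoKO 3. Of the 7 disc epithelium markers, among which ap is counted, 1 was called lower and 1 higher in SppsKO. Nearest to the others were Sgf29 for phol, CG9953 for Sfmbt, RpS7 for Trl, CG32113 for lolal, nuf for grh, CG34371 for psq and Pep for cg, with r between 0.932 and 0.971.

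The wider Polycomb machinery was read from lists written for this comparison. Of 23 genes of PRC1, PRC2, PR-DUB and other PRE-binding proteins, all tested, 2 were higher and 0 lower in PhoKO, and 0 were higher and 2 lower in SppsKO, beside the 9.66% and 8.18% of all genes called. The members of PRC2 and PR-DUB, and z, Adf1, crol and mod(mdg4), which were listed as other PRE-binding proteins, had 0 calls by limma in either mutant. Whether each of these listed proteins binds PREs itself was not examined. Of these 14, 5 had an unadjusted p under 0.05 in PhoKO and 2 in SppsKO, beside 23.7% and 24.2% of all tested genes. Over all 23, the counts were 9 in PhoKO and 4 in SppsKO. The 4 calls were of the PRC1 genes ph-p and ph-d in PhoKO and ph-d and Su(z)2 in SppsKO, so ph-d counts in both, with opposite signs. The share of the 23 called was near that of all genes in each mutant, so no result about the lists is read from these counts. The median fold change of the 23 was 0.063 in PhoKO and 0.021 in SppsKO, against -0.0019 and 0.00097 for all tested genes in the same comparisons.

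The neighbouring genes ph-p and ph-d, which encode closely related Polyhomeotic subunits and can share fragments, were higher in the pho mutant. Ph-d was at 28.9, 29.8 and 29.7 FPKM in PhoKO, against 18.8, 18.4 and 19.5 in WT, and ph-p at 46.4, 51.3 and 53.3 in PhoKO, against 34.2, 36.0 and 34.3 in WT. The log2 fold changes were 0.62 for ph-d (adjusted p = 0.000166) and 0.52 for ph-p (adjusted p = 0.00335), and both calls held in all 18 alternatives. In SppsKO ph-d was at 14.6 to 17.1 FPKM (log2 fold change -0.21, adjusted p = 0.0435) and Su(z)2, which encodes a relative of the PRC1 subunit Psc, at 7.02 to 8.88 FPKM against 9.89 to 10.7 in WT (-0.28, adjusted p = 0.0475). Both SppsKO calls ended when any single library other than SppsKO 4 was left out, PhoKO libraries included, and in 5 other alternatives (highest adjusted p = 0.171). SppsKO 4 was the lowest SppsKO library for both genes, and without it the log2 fold changes were -0.16 for ph-d (adjusted p = 0.0279) and -0.21 for Su(z)2 (adjusted p = 0.0289). The hemocyte markers described beside Dsp1 were lower in the same SppsKO libraries, and their part in these differences was not tested. Su(z)2 in PhoKO was at 12.2 to 12.8 FPKM, higher than in WT but not called by limma (log2 fold change 0.26, adjusted p = 0.0663). In PhoKO versus SppsKO, 3 of 9 PRC1 genes, ph-p, ph-d and Su(z)2, were called higher, beside 7.24% of all tested genes. Glia markers were higher in PhoKO, 5 of 6 called, with a summed level of 222 to 234 FPKM in PhoKO and 178 to 185 in WT, and their part in the PhoKO differences was not tested.

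By limma 0 of 2 Sp family relatives of Spps were called in SppsKO, with 0 at an unadjusted p under 0.05. In SppsKO btd was at 8.25 to 9.24 FPKM against 7.95 to 9.28 in WT (log2 fold change 0.011), and Sp1 at 52.0 to 54.7 against 52.9 to 60.0 in WT (-0.069), both overlapping. In PhoKO btd, a head and appendage factor, was at 5.97, 6.63 and 7.13 FPKM, against 8.19, 9.28 and 7.95 in WT (-0.32, SE 0.079, adjusted p = 0.0331), a call that ended in 9 of 18 alternatives, among them without WT 1, WT 2, PhoKO 1, PhoKO 2, SppsKO 1 or SppsKO 2 (highest adjusted p = 0.111). Sp1 was at 41.5, 47.4 and 53.8 FPKM in PhoKO and was not called (-0.25, SE 0.082, adjusted p = 0.0933).

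**Figure D5:**
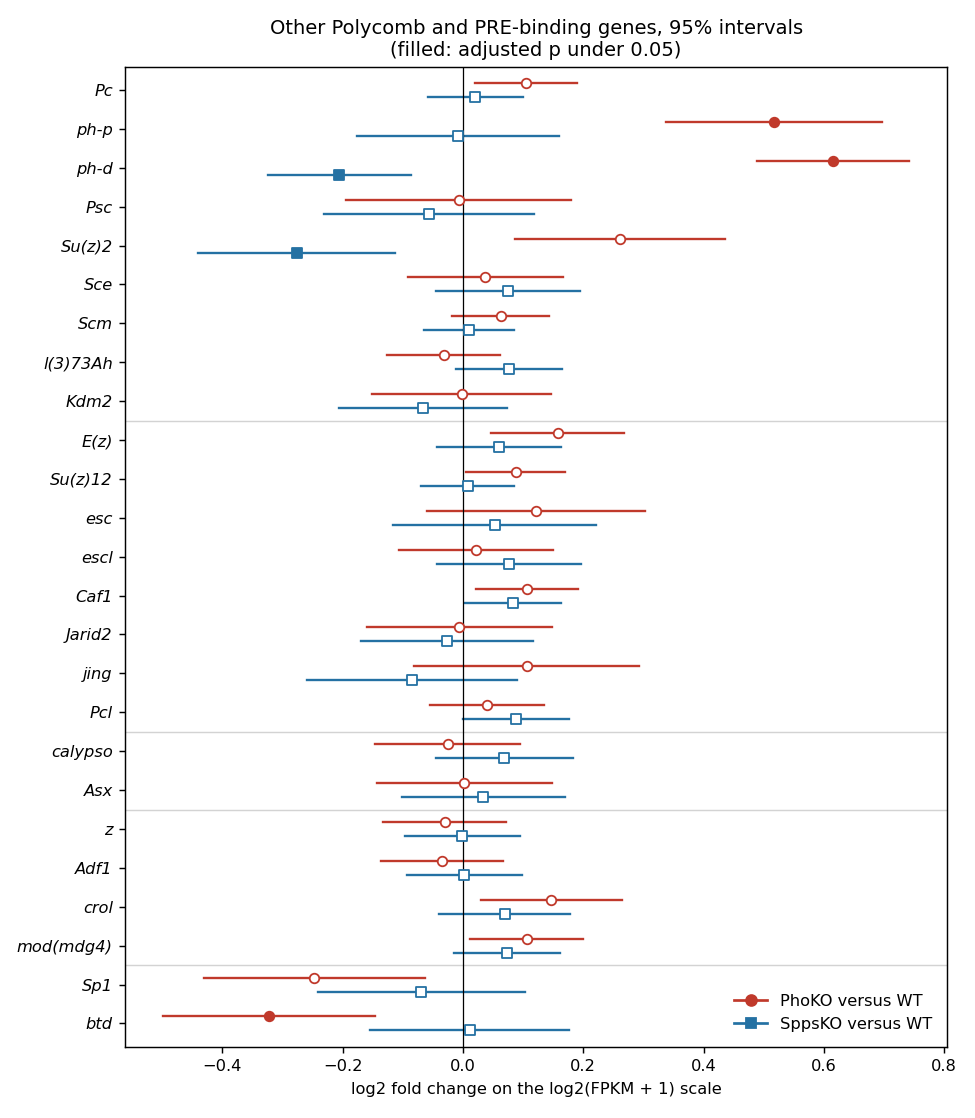
Log2 fold changes on the log2(FPKM + 1) scale with 95% intervals for genes of PRC1, PRC2, PR-DUB, other PRE-binding proteins and the Sp family (blocks from top to bottom), in PhoKO versus WT (circles) and SppsKO versus WT (squares), filled where the adjusted p was under 0.05. The filled points are ph-p and ph-d, higher in PhoKO, btd, lower in PhoKO (-0.32), and ph-d (-0.21) and Su(z)2 (-0.28), lower in SppsKO.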

How the data were processed

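Gene levels were deposited by the authors as FPKM in a table they called normalized. Among the tools in the submitters' processing notes are Cuffnorm, Cufflinks, TopHat2 2.1.1, DESeq2 and HTSeq, and the builds named are BDGP5 and dm3. No source used here ties a tool, an annotation or a strand setting to this table. The 42 ChIP-Seq samples were not analysed here, and the labels speak of 12 pooled RNA libraries, of which 10 were used.

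Read totals cannot be had from FPKM, and relative depth was read from the steps between low values. Genes with 1 FPKM or more in at least 3 libraries were kept. Values were taken as log2(FPKM + 1), which understates changes of low genes. With limma 3.58.1 (R 4.3.3), 1 model over the 10 libraries was fitted with genotype as its term and eBayes with trend and robust settings. P-values were adjusted by Benjamini-Hochberg over all 9748 genes in each of 3 comparisons, which share libraries. The fit was tested on simulated data with 200 of 9748 genes changed. Log2 changes of 0.25 were called in 28% of cases for PhoKO versus WT and 34% for SppsKO versus WT. For changes of 0.5 the shares were 82% and 84%. Small changes can thus be missed. The changed genes were drawn from all tested genes, whose median SD (0.088) was above that of the recruiters (0.052). These shares are therefore not those of the recruiters, for which none was measured. The pho to phol ratio in SppsKO was tested by exact permutation in SciPy 1.17.1. Of the table's symbols, 16298 matched a later gene table, used only for names and gene order. All 10 recruiters, their nearest profile, the neighbours of the targeted genes and called members of the Polycomb lists are named. Members and lists were chosen with earlier results of these data known. Replicate numbers are not said to mark a shared batch, so the unblocked fit is given, with the block as an alternative.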

Additional observations from a re-analysis of the deposited data

Results flagged for a closer look

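Within the group of 4, SppsKO, 53 genes were examined (the recruiters, their neighbours and nearest profiles, and the Polycomb and Sp family lists), and 10 had 1 library far from the rest by Dixon's ratio, where chance flags about 1 in 20. SppsKO 4 was that library for 8 of the 10. It was low for 6 Polycomb genes, Pc at 14.7 FPKM, ph-p at 29.9 FPKM, Psc at 16.1 FPKM, Su(z)2 at 7.02 FPKM, Jarid2 at 20.4 FPKM and jing at 36.5 FPKM, with ratios between 0.846 and 0.902. For Pc the gap was small, with the other SppsKO libraries at 15.1 to 15.2 FPKM and WT libraries at 14.5 to 15.3. Among the nearest profiles, SppsKO 4 was high for CG14715, at 118 FPKM (ratio 0.918), and low for CG34371, at 23.2 FPKM (ratio 0.848). SppsKO 3 was low for CG13609, at 1.74 FPKM (ratio 0.857), and high for btd, at 9.24 FPKM (ratio 0.851). None of the 10 recruiter genes was among them.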

How the results depend on the processing

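Both targeted genes kept their direction and call in all 18 alternatives, with pho in PhoKO between -1.78 and -1.52 and Spps in SppsKO between -3.58 and -1.55. The number of recruiters called in PhoKO was 1 throughout. In SppsKO it was 1 in place of 2 with the replicate block and ranged from 1 to 2 when single libraries were left out. In the direct comparison it was 4 under quantile normalization and ranged from 2 to 3 without single libraries.

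Genes called in PhoKO numbered 471 when only the compared groups were fitted, 627 without WT 3 and PhoKO 1, and 554 to 1112 without single libraries, against 942. Those in SppsKO numbered 449 with the replicate block and 506 to 838 without single libraries, against 797. Those in the direct comparison numbered 753 with the replicate block and 829 to 1671 without single libraries, against 1400. Same-numbered libraries deviated from their group means with correlations across genes of -0.377 to 0.11. Differently numbered libraries were not set beside them, so whether the numbers mark a shared preparation cannot be told.

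Signs of values near 0 turned. Under quantile normalization they turned for grh (0.018), cg (0.021) and PIP4K (0.018) in PhoKO, and for Trl (-0.018) and CG17786 (0.13) in SppsKO. Under median-of-ratios scaling Trl in SppsKO was -0.0025. With the replicate block Trl was -0.0069, lolal 0.010 and CG17786 0.049 in SppsKO, and cg was -0.014 in the direct comparison. Without WT 3 and PhoKO 1, grh (0.0090) and PIP4K (0.13) in PhoKO and Trl (-0.0033) and lolal (0.027) in SppsKO turned. Leaving out single libraries, values ranged from -0.082 to 0.0098 for Dsp1, -0.051 to 0.040 for grh and -0.075 to 0.064 for PIP4K in PhoKO. In SppsKO they ranged from -0.014 to 0.15 for pho, -0.012 to 0.023 for Trl, -0.047 to 0.027 for lolal and -0.054 to 0.049 for CG17786, and for cg in the direct comparison from -0.014 to 0.019. The log2 ratio of pho to phol in SppsKO ranged from -0.066 to 0.12. The count of neighbouring WT levels that overlap was 0 without WT 3, an alternative chosen after seeing the data. The cause of these shifts was not tested.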
